A study of Mus musculus with 32 samples.

Results

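The genes described here are 10 regulators and markers of chondrocyte hypertrophy: the transcription factors Runx1, Runx2, Runx3, Mef2a, Mef2c, Mef2d and Sp7, the repressor Hdac4, the receptor Pth1r and the collagen gene Col10a1. They were chosen by symbol for their known roles, and all 10 were found among the 41388 Ensembl genes of the count tables and passed the filter on low counts. RNA had been sequenced from primary chondrocytes, the cells that make and maintain cartilage, in a study of pathways tied to cartilage regeneration and degeneration. The cells came from femoral heads of LG/J mice, an inbred strain known for good wound healing, and of SM/J mice, a strain known for poor healing. All mice were 21 days old after birth, and neither strain carried a treatment or an engineered allele in the labels. The cells of both strains were grown for 4 days in high-glucose medium with 10% fetal bovine serum and were not passaged. There were 8 libraries of LG/J males, 8 of LG/J females, 8 of SM/J males and 8 of SM/J females, 32 in all. The labels do not say that the libraries of a group came from separate animals or cultures, so each p-value reflects only how these libraries varied, and part of that may be technical.

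In the growth plate, chondrocytes that leave the proliferating pool enlarge, switch to collagen X and are then replaced by bone. RUNX2, with RUNX3, and the MEF2 factors, MEF2C above all, switch on hypertrophic genes including Col10a1, and the zinc finger factor SP7 (osterix) acts with them. HDAC4, a class IIa histone deacetylase, binds MEF2 and RUNX2 and holds them back, and parathyroid hormone-related protein, acting through the receptor PTH1R and protein kinase A, delays hypertrophy in part by keeping HDAC4 in the nucleus.

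The libraries held 15840330 to 25571598 counts each. All 9 chondrocyte markers checked were detected in every group, and their summed level ran from 1594 to 35083 CPM in LG/J and from 7777 to 23758 CPM in SM/J (CPM, a gene's counts scaled to a fixed library total, here with TMM factors). The library numbered 1 of the LG/J males and that of the LG/J females stood apart: their chondrocyte marker sums were 2459.6 and 1594 CPM, against 12710.4 CPM or more in the other 14 LG/J libraries, and their sums of 6 inflammation genes were 10549.6 and 13728 CPM, against 1086 CPM at most. Results are therefore given with and without these 2 libraries. In addition, 6 libraries held transcripts of both sexes, and 6 of the 112 pairs of libraries within a group differed by less than 5 times the sampling noise, and results without the first set or with the pairs summed are named beside the genes whose call they change.

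Promoter sequences were at hand for 9 of the 10 genes, 15 windows in all, each from 250 bases before to 50 bases after an annotated RefSeq transcript start on GRCm38.p6. The distal windows of the 3 Runx genes are shown because each holds the same pair of RUNX motifs. RUNX proteins bind TGTGGT, which reads ACCACA on the other strand, and the variant TGCGGT, and both were searched on both strands. The sequences read 5′ to 3′ on the strand of the gene, and capitals mark every RUNX match. The Runx1 window is chr16:92826025-92826324 on the minus strand, the Runx2 window chr17:44814578-44814877 on the minus strand and the Runx3 window chr4:135120395-135120694 on the plus strand.
Runx1 distal promoter: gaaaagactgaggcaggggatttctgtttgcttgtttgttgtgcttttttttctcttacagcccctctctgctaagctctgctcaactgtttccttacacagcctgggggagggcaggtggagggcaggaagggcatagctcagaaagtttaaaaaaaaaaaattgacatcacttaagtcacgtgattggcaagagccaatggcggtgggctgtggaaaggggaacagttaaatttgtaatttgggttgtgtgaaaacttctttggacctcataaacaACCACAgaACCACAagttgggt
Runx2 distal promoter: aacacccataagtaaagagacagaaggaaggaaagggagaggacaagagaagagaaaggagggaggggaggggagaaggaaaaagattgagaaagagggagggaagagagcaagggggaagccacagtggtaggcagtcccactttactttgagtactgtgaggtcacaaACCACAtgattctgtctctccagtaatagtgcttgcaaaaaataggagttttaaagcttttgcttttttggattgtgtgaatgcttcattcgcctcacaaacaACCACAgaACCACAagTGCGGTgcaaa
Runx3 distal promoter: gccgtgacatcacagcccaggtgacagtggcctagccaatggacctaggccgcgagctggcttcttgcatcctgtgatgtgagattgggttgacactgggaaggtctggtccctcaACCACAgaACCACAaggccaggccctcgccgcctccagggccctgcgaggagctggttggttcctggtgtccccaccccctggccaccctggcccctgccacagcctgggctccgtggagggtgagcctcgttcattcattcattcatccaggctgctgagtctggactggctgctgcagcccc
In all 3, the run ACCACAgaACCACA occurred, from base 29 to 42 after the transcript start in Runx1, from 24 to 37 after it in Runx2 and from 134 to 121 before it in Runx3. Runx2 had 2 further matches, of which the TGCGGT from base 40 to 45 lies just beyond the pair. A single match is common, since 22.4% of the 32851 promoter windows of all genes held TGTGGT or TGCGGT. The pair, ACCACA and ACCACA with any 2 bases between them, on either strand, was found in 7 of those windows (0.021%), and 3 of the 7 belong to Runx1, Runx2 and Runx3. The pair was searched after these sequences had been read, and a match describes letters and shows no binding. The proximal windows of Runx1 and Runx3 held no match.

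The windows of Mef2a and Col10a1 are shown as a gene of the MEF2 family that carries the MEF2 consensus at its own start, and as the hypertrophic target. They are chr7:67372809-67373108 on the minus strand and chr10:34389731-34390030 on the plus strand, and capitals mark the MEF2 consensus, searched on both strands.
Mef2a promoter: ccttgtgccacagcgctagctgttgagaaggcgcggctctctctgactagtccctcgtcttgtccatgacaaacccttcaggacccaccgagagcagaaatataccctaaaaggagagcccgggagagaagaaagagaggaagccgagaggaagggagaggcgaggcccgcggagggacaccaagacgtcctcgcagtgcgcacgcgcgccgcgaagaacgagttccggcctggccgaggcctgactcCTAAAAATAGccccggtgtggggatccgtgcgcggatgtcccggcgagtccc
Col10a1 promoter: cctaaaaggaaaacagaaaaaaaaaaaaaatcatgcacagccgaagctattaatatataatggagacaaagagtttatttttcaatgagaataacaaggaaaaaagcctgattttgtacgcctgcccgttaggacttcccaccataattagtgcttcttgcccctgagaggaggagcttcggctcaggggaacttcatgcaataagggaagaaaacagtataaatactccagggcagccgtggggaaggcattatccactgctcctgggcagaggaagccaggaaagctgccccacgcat
The match in Mef2a, CTAAAAATAG, runs from base 2 before the start to base 8 after it. The only other match among the 15 windows was CTAAAAATAA in a downstream window of Pth1r, from 200 to 191 bases before that start. The consensus occurred in 3.2% of all windows. The Col10a1, Hdac4, Mef2d and 3 Mef2c windows held neither motif, which says only that these letters are not in these 300 bases.

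Per length, as RPKM (TMM-scaled CPM per kilobase of exon), the level of Col10a1 was the highest of the 10 in both strains, at 129 ± 74.8 in LG/J and 58.6 ± 38.7 in SM/J (mean ± SD, n = 16 each). The level of Pth1r came next, at 60.3 ± 24.9 RPKM in LG/J and 34.2 ± 9.30 RPKM in SM/J, and then that of Mef2c, at 16.6 ± 5.97 RPKM in LG/J and 7.61 ± 2.08 RPKM in SM/J. Pth1r and Mef2c, and Runx1 and its neighbour, were the only neighbours in this order whose mean ± SD did not overlap, in either strain. Sp7, Runx2, Mef2a, Runx3, Hdac4 and Mef2d lay between 3.20 and 8.11 RPKM in LG/J and between 1.63 and 5.45 RPKM in SM/J, without clear steps. Runx1 was the lowest of the 10, at 0.819 ± 0.865 RPKM in LG/J and 0.761 ± 0.265 RPKM in SM/J. Hdac4 was above Mef2d in 15 of 16 LG/J libraries, whereas in SM/J it ranked below both Mef2d and Runx3, and Runx3 exceeded it in 16 of 16 libraries.

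**Figure D1:**
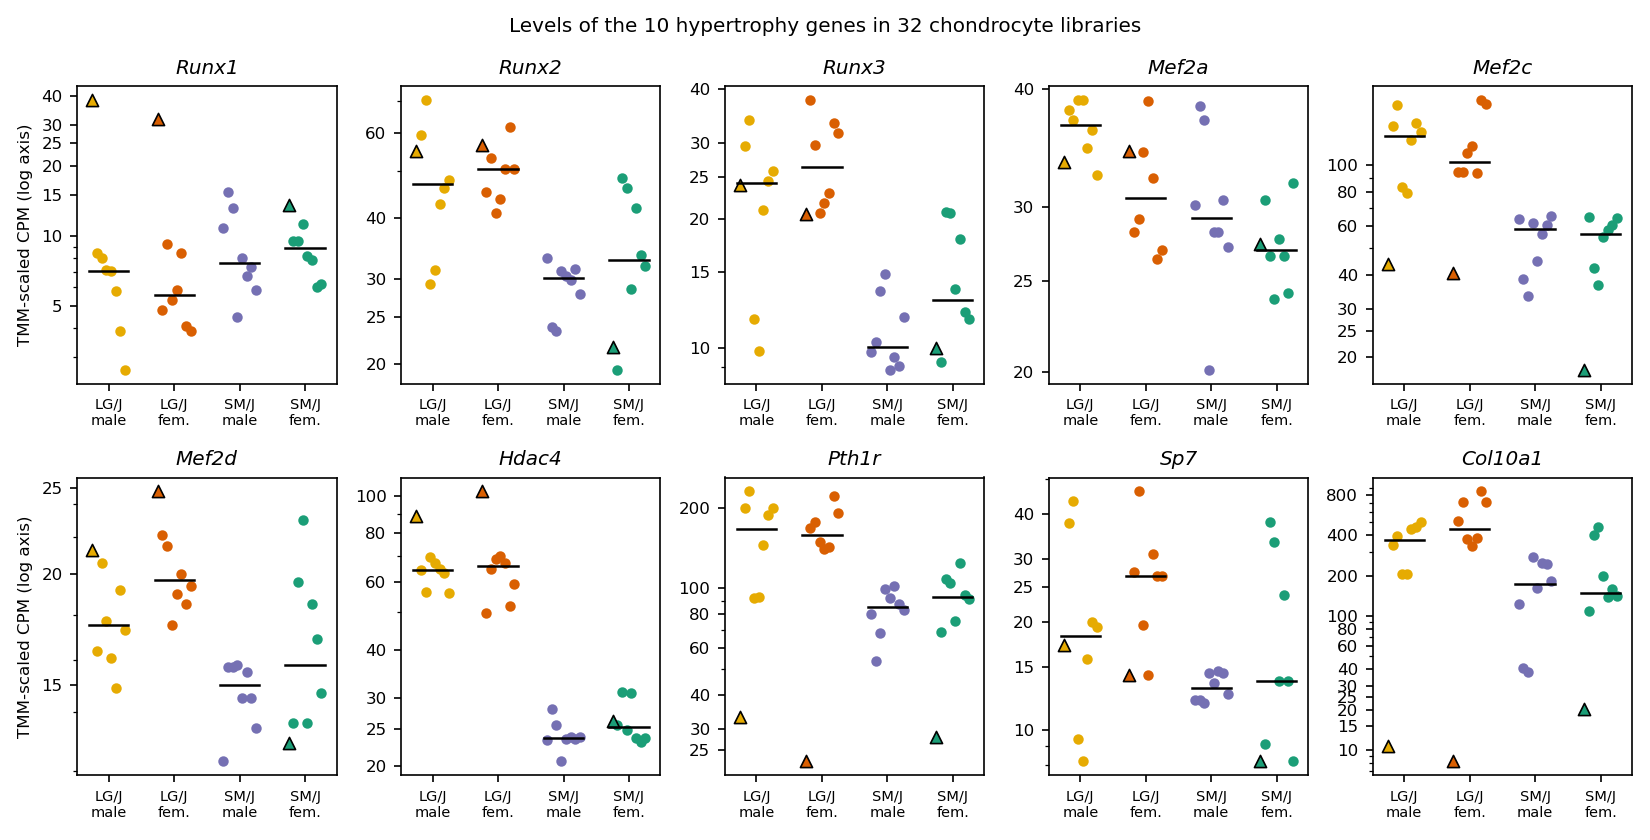
Level of each gene in every library, as TMM-scaled CPM on a log axis, by strain and sex, with a line at the group median. Triangles mark the LG/J libraries numbered 1 and SM/J female 1. For Hdac4 all LG/J points lie above all SM/J points, and for Col10a1 the 3 triangles are at 10.7, 8.20 and 20.2 CPM.

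Most of these genes were higher in LG/J chondrocytes. With all 32 libraries, Hdac4, Mef2c, Runx3, Pth1r, Runx2, Mef2d and Mef2a passed the test, all higher in LG/J, by 1.18- to 2.65-fold, none was lower, and Runx1, Sp7 and Col10a1 did not pass (edgeR's quasi-likelihood test with Benjamini-Hochberg adjustment over 16136 genes, adjusted p under 0.05). The 7 genes are 70.0% of the 10, against 29.9% of all genes tested that were called in either direction, 16.4% higher and 13.5% lower in LG/J. Without both LG/J libraries numbered 1, 9 were higher and Runx1 was lower, against 32.2% of all genes called, 17.1% higher and 15.1% lower in LG/J. The median log2 fold change of the 10 genes was 0.73 with all libraries, against 0.02 over all genes. In bulk RNA, a difference in the share of cells of a type and a difference in RNA per cell cannot be told apart.

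Runx2, the main RUNX factor of hypertrophic chondrocytes and osteoblasts (ENSMUSG00000039153, chr17:44495987-44814797, minus strand, GRCm38), ranged from 29.2 over a median of 49.2 to 70.4 CPM in LG/J and from 19.4 over a median of 30.8 to 48.5 CPM in SM/J. The strains overlapped, but 15 of 16 LG/J libraries were above the SM/J median. The difference was 1.57-fold (log2 fold change 0.65 ± 0.12 SE, adjusted p = 7.56e-05). Runx3, which acts with Runx2 in chondrocyte maturation (ENSMUSG00000070691, chr4:135120652-135177990), ran from 9.81 over 24.3 to 37.9 CPM in LG/J and from 8.88 over 11.7 to 20.7 CPM in SM/J. Here 12 of 16 LG/J libraries exceeded every SM/J library. Runx3 was 1.97-fold higher in LG/J (0.98 ± 0.15, adjusted p = 5.27e-06).

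Runx1, which is active in early cartilage and in blood cells (ENSMUSG00000022952, chr16:92601466-92826149), changed direction with the choice of libraries. It ran from 2.65 over 6.45 to 38.6 CPM in LG/J and from 4.48 over 8.11 to 15.5 CPM in SM/J, and the 2 LG/J libraries numbered 1 held the highest LG/J values, 38.6 CPM in the male and 31.9 CPM in the female. With them the log2 fold change was 0.10 ± 0.32 (adjusted p = 0.854), and without them Runx1 was 1.49-fold lower in LG/J (-0.57 ± 0.18, adjusted p = 0.0163). That call was lost when close pairs were also summed. It was lost too when the 6 libraries of mixed sex transcripts were also left out, where even the unadjusted p was not under 0.05. By voom, with all 32 libraries, Runx1 was not called. The remaining 14 LG/J libraries ended at 9.23 CPM, inside the SM/J range. Of the summed RPKM of the 3 Runx genes, Runx2 held 49.5 ± 4.15% in LG/J and 51.7 ± 5.74% in SM/J, and Runx3 held 43.4 ± 7.05% in LG/J and 36.7 ± 4.39% in SM/J (n = 16 each). Runx1 held 7.09 ± 6.11% in LG/J, 5.02 ± 2.42% in its 14 libraries without the pair, and 11.6 ± 4.92% in SM/J. The means of the Runx2 share thus lay within 1 SD of each other.

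Mef2c, the MEF2 factor most tied to hypertrophy (ENSMUSG00000005583, chr13:83504034-83667079), ran from 40.4 over a median of 114 to 173 CPM in LG/J and from 18.0 over 57.1 to 65.4 CPM in SM/J. The lowest LG/J values were the libraries numbered 1, at 43.7 CPM in the male and 40.4 CPM in the female, and the other 14 began at 79.2 CPM, above every SM/J library. Of all genes tested, 1.69% had LG/J wholly above SM/J in this way, without the 2 libraries. Mef2c was 2.19-fold higher in LG/J (1.13 ± 0.19, adjusted p = 1.80e-05), and 2.38-fold without those libraries (1.25 ± 0.16, adjusted p = 1.92e-07).

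The other MEF2 genes differed less. Mef2a (ENSMUSG00000030557, chr7:67231163-67372858), a widely expressed member, had 26.4 to 39.0 CPM with a median of 34.3 in LG/J and 20.1 to 38.4 CPM with a median of 28.0 in SM/J, and was 1.18-fold higher in LG/J (0.23 ± 0.07, adjusted p = 0.0102). Its strains overlapped through most of their range, and the call was lost with close pairs summed (adjusted p = 0.0698). Mef2d (ENSMUSG00000001419, chr3:88142372-88172086), also broadly expressed, had 14.9 to 24.8 CPM with a median of 19.1 in LG/J and 12.3 to 23.0 CPM with a median of 15.1 in SM/J, and was 1.22-fold higher (0.29 ± 0.07, adjusted p = 0.00294). Of the exons of Mef2d, 8.81% overlap 1700113A16Rik on the other strand, which averaged 4.954 CPM, and the strand setting of the counting is not given. Mef2c made up 67.2 ± 6.41% of the summed Mef2 RPKM in the 14 LG/J libraries, 40.2 ± 2.69% in the pair numbered 1 (n = 2) and 50.5 ± 9.33% in SM/J (n = 16). The lowest share of the 14 was 56.9%, and the highest in SM/J was 60.9%, so the ranges overlapped at their ends.

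**Figure D2:**
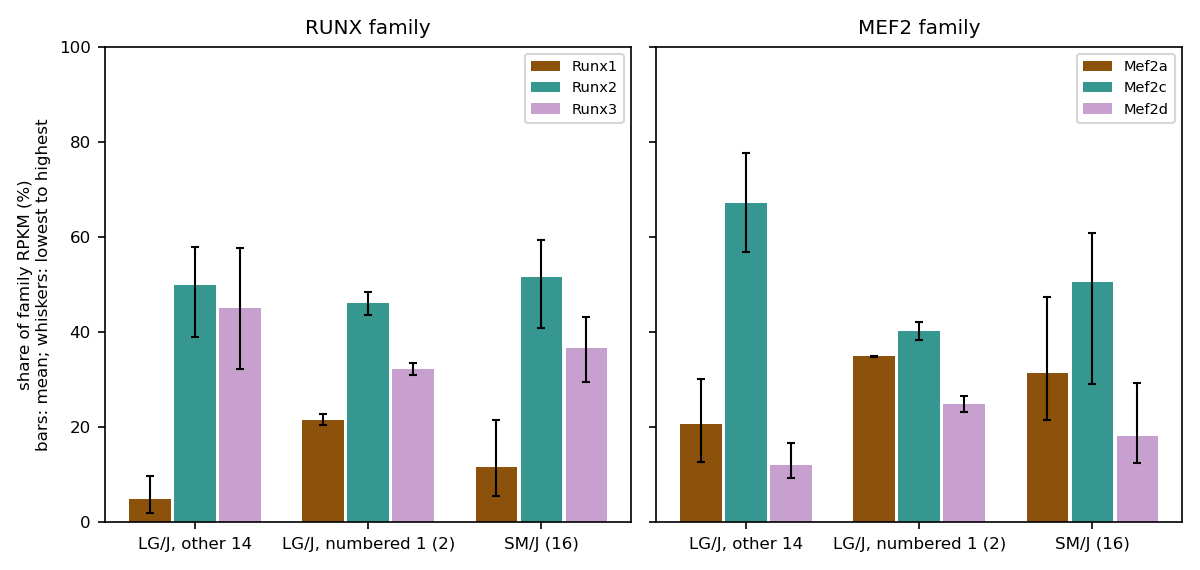
Share of each family member in the summed RPKM of its family (percent), for 14 LG/J libraries, the LG/J pair numbered 1 and 16 SM/J libraries. Bars are means and whiskers run from the lowest to the highest library. Mef2c averages 67.2, 40.2 and 50.5%, and Runx1 5.02, 21.6 and 11.6%, in that order of groups.

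Hdac4 (ENSMUSG00000026313, chr1:91928779-92180341, minus strand) was the one gene of the 10 whose strains did not overlap in any library. It ran from 49.7 over a median of 64.8 to 103 CPM in LG/J and from 20.6 over 23.9 to 31.1 CPM in SM/J. Of all genes tested, 1.36% had every LG/J library above every SM/J library. Hdac4 was 2.65-fold higher in LG/J (1.41 ± 0.08, adjusted p = 9.46e-16). The 2 highest values were again the LG/J libraries numbered 1, at 88.7 CPM in the male and 103 CPM in the female. Without them the fold was 2.49 (1.32 ± 0.06, adjusted p = 2.41e-18) and the coefficient of variation was 10.5% in LG/J and 11.3% in SM/J, the lowest of the 10 genes in each. Of its exon bases 23.0% overlap Gm26720 on the other strand, which had no read in any library.

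Pth1r (ENSMUSG00000032492, chr9:110722088-110743686, minus strand) had 22.6 to 231 CPM with a median of 159 in LG/J and 27.8 to 124 CPM with a median of 89.4 in SM/J. The LG/J libraries numbered 1 were the lowest of their strain, at 33.2 CPM in the male and 22.6 CPM in the female, and 12 of the other 14 were above every SM/J library. Pth1r was 1.76-fold higher in LG/J (0.82 ± 0.23, adjusted p = 0.00782) and 1.97-fold without these libraries (0.98 ± 0.16, adjusted p = 1.36e-05).

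Sp7 (ENSMUSG00000060284, chr15:102356609-102366325, minus strand) had 8.16 to 46.3 CPM with a median of 19.8 in LG/J and 8.18 to 37.9 CPM with a median of 13.6 in SM/J, so the strains overlapped through most of their range. Its difference did not pass (log2 fold change 0.59 ± 0.23, adjusted p = 0.0580), and without the LG/J libraries numbered 1 it was 1.57-fold (0.66 ± 0.24, adjusted p = 0.0377). Sp7 was called in 7 of the 14 alternatives, among them with close pairs summed (0.69, adjusted p = 0.0374) and without the 6 libraries of mixed sex transcripts (0.91, adjusted p = 0.00603). Of the 32 fits that each left out 1 library, 6 gave an adjusted p under 0.05 for Sp7: those without LG/J male 4 or 5, LG/J female 1 or 5, or SM/J female 3 or 4.

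Col10a1 (ENSMUSG00000039462, chr10:34389981-34397085), the collagen that marks hypertrophic cartilage, was the most variable of the 10 within SM/J. It ran from 8.20 over a median of 389.8 to 855 CPM in LG/J and from 20.2 over 159.8 to 458 CPM in SM/J, with coefficients of variation of 57.9 and 66.1%. The LG/J libraries numbered 1 were the 2 lowest of all 32, at 10.7 CPM in the male and 8.20 CPM in the female, and SM/J female 1 followed at 20.2 CPM. All of the other 14 LG/J libraries, from 205 CPM up, were above the SM/J median, and 6 exceeded every SM/J library. With all libraries the difference of 2.17-fold just missed the threshold (1.12 ± 0.43, adjusted p = 0.0509), and without the 2 it was 2.48-fold (1.31 ± 0.32, adjusted p = 0.00193). Col10a1 was called in 9 of the 14 alternatives, among them the one without the 6 libraries of mixed sex transcripts (1.35, adjusted p = 0.0399), voom (1.42, adjusted p = 0.00405) and 2 with adjusted p just under the threshold, the upper-quartile factors and the filter at 1 CPM. It was not called with close pairs summed (1.28, adjusted p = 0.0781). Leaving out 1 library changed that side of the threshold in 5 of 32 fits: without LG/J male 1, LG/J female 1, SM/J male 4, or SM/J female 3 or 4.

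**Figure D3:**
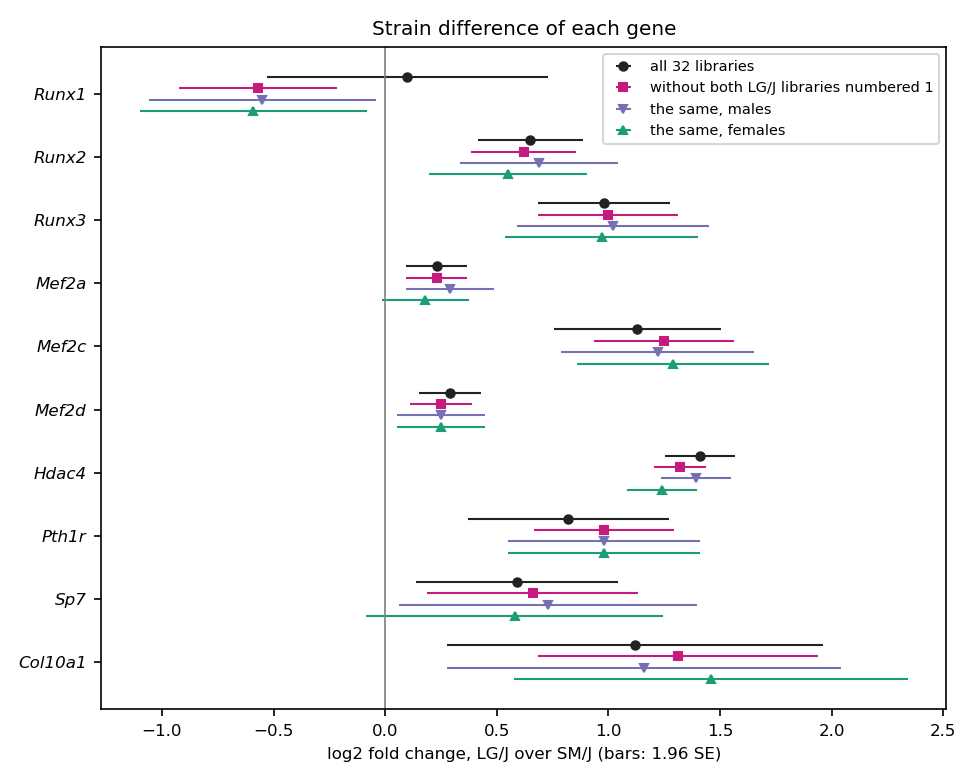
Log2 fold change of each gene, LG/J over SM/J, with an approximate 95% interval, from all 32 libraries, without the LG/J libraries numbered 1, and, also without these, within males and within females. Runx1 lies at 0.10 with all libraries and at -0.57 without the 2, and the gap between males and females is widest for Col10a1, at 1.16 in males and 1.46 in females.

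Within each sex the directions were alike. In males 6 of the 10 genes were higher in LG/J (Runx2, Runx3, Mef2a, Mef2c, Mef2d and Hdac4), against 22.3% of all genes called and 12.8% higher in LG/J males. In females 4 were higher (Runx2, Runx3, Mef2c and Hdac4), against 13.4% of all genes called and 6.87% higher in LG/J females. With the 6 libraries of mixed sex transcripts left out, 6 of the 10 genes were called in males and 6 in females. The shares of all genes called within a sex are not given for that fit. Without the LG/J libraries numbered 1, 6 were higher in males (Runx2, Runx3, Mef2a, Mef2c, Hdac4 and Pth1r), against 24.7% called and 13.7% higher, and 6 in females (Runx2, Runx3, Mef2c, Hdac4, Col10a1 and Pth1r), against 15.9% called and 8.28% higher. The test of the difference between the sexes called 0 of the 10 genes, and 0 had an unadjusted p under 0.05 by edgeR, by DESeq2 or by voom; over all genes 1 of 16136 was called (0.00620%). Without the 6 libraries of mixed sex transcripts, 0 was called by edgeR and Mef2a had an unadjusted p of 0.0123 (adjusted p = 0.290). With the LG/J libraries numbered 1 left out too, 0 was called, and Mef2a, Hdac4 and Col10a1 had an unadjusted p under 0.05, with adjusted p of 0.150 to 0.282 and a Col10a1 difference of -1.48 ± 0.50. With all libraries, the widest interval was that of Col10a1, whose log2 strain difference was 0.97 in males and 1.26 in females, a difference of -0.29 (95% interval -1.97 to 1.39), so a difference of several fold between the sexes was not detectable there. For Hdac4 the same interval was narrow, from -0.20 to 0.42. Between males and females over both strains, 0 of the 10 genes was called by edgeR, DESeq2 or voom, against 3.46% of all genes in edgeR. At an unadjusted p under 0.05, 3 genes differed by each of the 3 tools: Mef2a averaged 33.1 ± 5.36 CPM in males and 29.3 ± 4.06 CPM in females, Runx3 16.8 ± 8.34 and 20.9 ± 8.64 CPM, and Mef2d 16.3 ± 2.44 and 18.5 ± 3.50 CPM (n = 16 each). Without the 6 libraries of mixed sex transcripts, Mef2d alone of the 10 had an unadjusted p under 0.05 (0.0428), as it did with close pairs summed (0.0386).

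Of 14 partners and regulators of RUNX factors, 12 were tested. With all libraries 3 were higher in LG/J, 2 were lower and 7 were not called, with a median log2 fold change of -0.03. Over all genes tested, 29.9% were called, 16.4% higher and 13.5% lower in LG/J. Cbfb, which encodes the DNA-binding partner of all RUNX proteins, averaged 46.9 ± 9.27 CPM in LG/J, against 40.1 ± 3.90 CPM in SM/J, and was 1.17-fold higher (0.23 ± 0.08, adjusted p = 0.0362), a call lost with close pairs summed, without the 6 libraries of mixed sex transcripts and in 14 of the 32 fits without 1 library. Trps1, a GATA-type repressor that limits hypertrophy, was 1.73-fold higher in LG/J (0.79 ± 0.10, adjusted p = 2.10e-07). Nkx3-2, a repressor of Runx2, was also higher (1.12 ± 0.27, adjusted p = 0.00161), but at only 0.718 ± 0.386 CPM in LG/J, against 0.323 ± 0.170 CPM in SM/J. Twist1, which binds RUNX2 and blocks it, was 1.76-fold lower (-0.81 ± 0.12, adjusted p = 3.93e-06), at 6.14 ± 1.95 CPM in LG/J, against 10.8 ± 2.07 CPM in SM/J. Dlx5, a homeobox activator of hypertrophy, was lower (-0.58 ± 0.14, adjusted p = 0.00220). Thus inhibitors of RUNX activity were among both the higher and the lower genes.

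Of 16 genes of class IIa deacetylase and MEF2 signalling, 15 were tested, and 5 were higher, 2 lower and 8 not called, with a median of -0.03. The share of all genes called was 29.9%, with 16.4% higher and 13.5% lower. Ywhaz, a 14-3-3 protein of the family that holds phosphorylated class IIa deacetylases in the cytoplasm, had 807 to 979.6 CPM in LG/J and 284 to 382 CPM in SM/J, and was 2.61-fold higher (1.38 ± 0.04, adjusted p = 1.50e-23). A copy, Gm4202, matches Ywhaz over 733 bases at 99.864% identity and averaged 14.027 CPM, so some reads may be split between them. Prkaca, a catalytic subunit of protein kinase A, which signals downstream of PTH1R, had 6.80 to 12.2 CPM in LG/J and 17.2 to 30.9 CPM in SM/J, and was 2.59-fold lower (-1.37 ± 0.09, adjusted p = 1.02e-13). Ywhaz and Prkaca thus separated the strains without overlap. Of all genes tested, 1.36% had every LG/J library above every SM/J library, as Ywhaz did. The share with every LG/J library below, as for Prkaca, is not given. Both genes were named for having the smallest p of this list, which favours such a separation. Prkacb, the gene of another catalytic subunit of protein kinase A, chosen after its values were seen, was 1.17-fold higher (0.22 ± 0.06, adjusted p = 0.00395). Sik1 and Sik3 encode salt-inducible kinases that phosphorylate class IIa deacetylases. Sik3 was 1.15-fold higher (0.20 ± 0.06, adjusted p = 0.0205), and Sik1 was higher (1.74 ± 0.28, adjusted p = 1.19e-05) at 0.794 ± 0.544 CPM in LG/J, against 0.231 ± 0.117 CPM in SM/J. Of the other class IIa deacetylases, Hdac9 was 1.90-fold higher (0.93 ± 0.23, adjusted p = 0.00234) at 3.23 ± 1.36 CPM in LG/J, against 1.71 ± 0.889 CPM in SM/J, whereas the log2 fold change of Hdac5 was -0.14 ± 0.12 (adjusted p = 0.401). Hdac7, chosen after its values were seen, had -0.05 ± 0.31 with all libraries (adjusted p = 0.930) and was 1.54-fold lower without the LG/J libraries numbered 1 (-0.63 ± 0.22, adjusted p = 0.0273).

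All 13 genes of the parathyroid hormone-related protein and Indian hedgehog loop were tested, and 6 were higher, 0 lower and 7 not called, with a median of 0.30. Among all genes tested, 16.4% were higher and 13.5% lower. With close pairs summed 3 were higher and 0 lower, as they were without the 6 libraries of mixed sex transcripts. Without the LG/J libraries numbered 1, 5 were higher and 1 lower. Over all genes, 2010 of 16328 were higher and 1594 lower with close pairs summed. Without the 6 libraries of mixed sex transcripts, 2196 of 16387 were higher and 1705 lower. Without the LG/J libraries numbered 1, 17.1% were higher and 15.1% lower. Ptch1, the hedgehog receptor and a hedgehog target, was 2.04-fold higher (1.03 ± 0.16, adjusted p = 3.59e-06). Gli1, another target, was higher (1.51 ± 0.47, adjusted p = 0.0153) at 1.74 ± 1.37 CPM in LG/J, against 0.623 ± 0.680 CPM in SM/J, a call lost with close pairs summed or without the 6 libraries of mixed sex transcripts. Creb1, a factor activated by protein kinase A, was 1.30-fold higher (0.38 ± 0.07, adjusted p = 2.72e-05). The ligand genes were at low levels in both strains. Pthlh, encoding parathyroid hormone-related protein, averaged 2.20 ± 1.46 CPM in LG/J, against 1.17 ± 0.905 CPM in SM/J, and its adjusted p of 0.04999 (0.94 ± 0.37) passed in only 10 of the 32 fits without 1 library, and neither with close pairs summed nor without the 6 libraries of mixed sex transcripts. Ihh averaged 1.88 ± 1.35 CPM in LG/J, against 1.40 ± 1.01 CPM in SM/J (0.43 ± 0.42, adjusted p = 0.482).

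Of 17 genes of the hypertrophic and mineralizing matrix, 15 were tested, and 4 were higher, 1 lower and 10 not called. The part called was near that of all genes, of which 29.9% were called, 16.4% higher and 13.5% lower. The median of the list was 0.39, and -0.00 without the LG/J libraries numbered 1. With close pairs summed 3 were higher and 0 lower, against 2010 higher and 1594 lower of all 16328 genes tested. Without the 6 libraries of mixed sex transcripts 1 of 16 tested was higher and 0 lower, against 2196 higher and 1705 lower of 16387. Mgp, whose product matrix Gla protein inhibits mineralization, averaged 3438 ± 1667 CPM in LG/J, against 679 ± 187 CPM in SM/J, and was 5.05-fold higher (2.34 ± 0.22, adjusted p = 3.06e-10). Panx3, a channel protein of prehypertrophic chondrocytes, averaged 675 ± 399.9 CPM in LG/J, against 318 ± 121 CPM in SM/J (1.09 ± 0.36, adjusted p = 0.0220). The calls of Panx3 and of Mmp14 below were lost with close pairs summed and without the 6 libraries of mixed sex transcripts. Phex, an endopeptidase of mineralizing cells, was higher as well (0.74 ± 0.27, adjusted p = 0.0360), a call lost with close pairs summed, without the 6 libraries of mixed sex transcripts, in 12 of the 32 fits without 1 library and without the LG/J pair numbered 1 (adjusted p = 0.0528). Vegfa, an angiogenic factor chosen after its values were seen, also lost its call without that pair (0.65 ± 0.25 with it, adjusted p = 0.0476, and 0.14 without it). Mmp14, a membrane collagenase, was 1.41-fold lower (-0.50 ± 0.16, adjusted p = 0.0166). Mmp13, the collagenase of late hypertrophic cells, had a log2 fold change of 0.20 ± 0.36 with all libraries (adjusted p = 0.723) and -0.56 without the pair (adjusted p = 0.0669). Ibsp, the bone sialoprotein gene, had -0.21 ± 0.47 (adjusted p = 0.785). Mmp13 and Ibsp thus did not pass with all libraries, where Mef2c, Runx2 and Pth1r did.

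Of 14 chondrocyte identity genes, 3 were higher with all libraries (Hapln1, Acan and Sox9) and 0 lower, with a median of 0.46. Without the LG/J libraries numbered 1, 10 were higher. The shares over all genes were 16.4% higher and 13.5% lower with all libraries, and 17.1% higher without that pair. Hapln1, Acan and Sox9 lost their calls with close pairs summed and without the 6 libraries of mixed sex transcripts, and the call of Acan was lost in 23 of the 32 fits without 1 library. Sox9, the master factor of cartilage that restrains hypertrophy, averaged 456 ± 147 CPM in LG/J, against 329 ± 59.5 CPM in SM/J (0.47 ± 0.15, adjusted p = 0.0163). The chondrocyte marker sum had a median of 25215 CPM in LG/J, against 15575 CPM in SM/J, so it was higher in the same strain as most hypertrophy genes. Between libraries this was mixed. The LG/J libraries numbered 1 were the lowest of their strain in both the sum and Col10a1. SM/J females 3 and 4 had the lowest sums of SM/J, 7777 and 8426 CPM, but its highest Col10a1, 399.9 and 458 CPM. The part of the chondrocyte marker sum in the strain difference was not tested. The sum of 11 macrophage markers had a median of 78.7 CPM (33.6 to 1848) in LG/J and 336 CPM (92.1 to 1344) in SM/J, with 3 of 10 tested markers lower in LG/J and 0 higher, and its part in the result was not tested. In the LG/J libraries numbered 1, where Runx1 was highest, the macrophage sum was 418 and 535 CPM, most of it Cd14 (mean 310.1 CPM) and Cd68 (mean 149.8 CPM). Of the other markers of that list, Csf1r averaged 0.873 CPM in the pair, against a median of 2.44 CPM in the other 14 LG/J libraries. Adgre1 had 0.313 CPM against 1.64 CPM, and Lyz2 12.2 CPM against 27.2 CPM. C1qa, near the floor, went the other way, at 0.377 CPM against 0.137 CPM. The remaining markers of the list are not given, and the part of macrophages in the Runx1 level was not tested. Of 7 osteoclast markers 5 were tested and 2 were lower, and the sum of 8 osteoblast and osteocyte markers had a median of 935 CPM (158 to 2922) in LG/J and 1218 CPM (525 to 3776) in SM/J. Markers of muscle, endothelium and lymphocytes summed to at most 22.5 CPM in any library, and no marker of any list was at 0 over a strain.

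**Figure D4:**
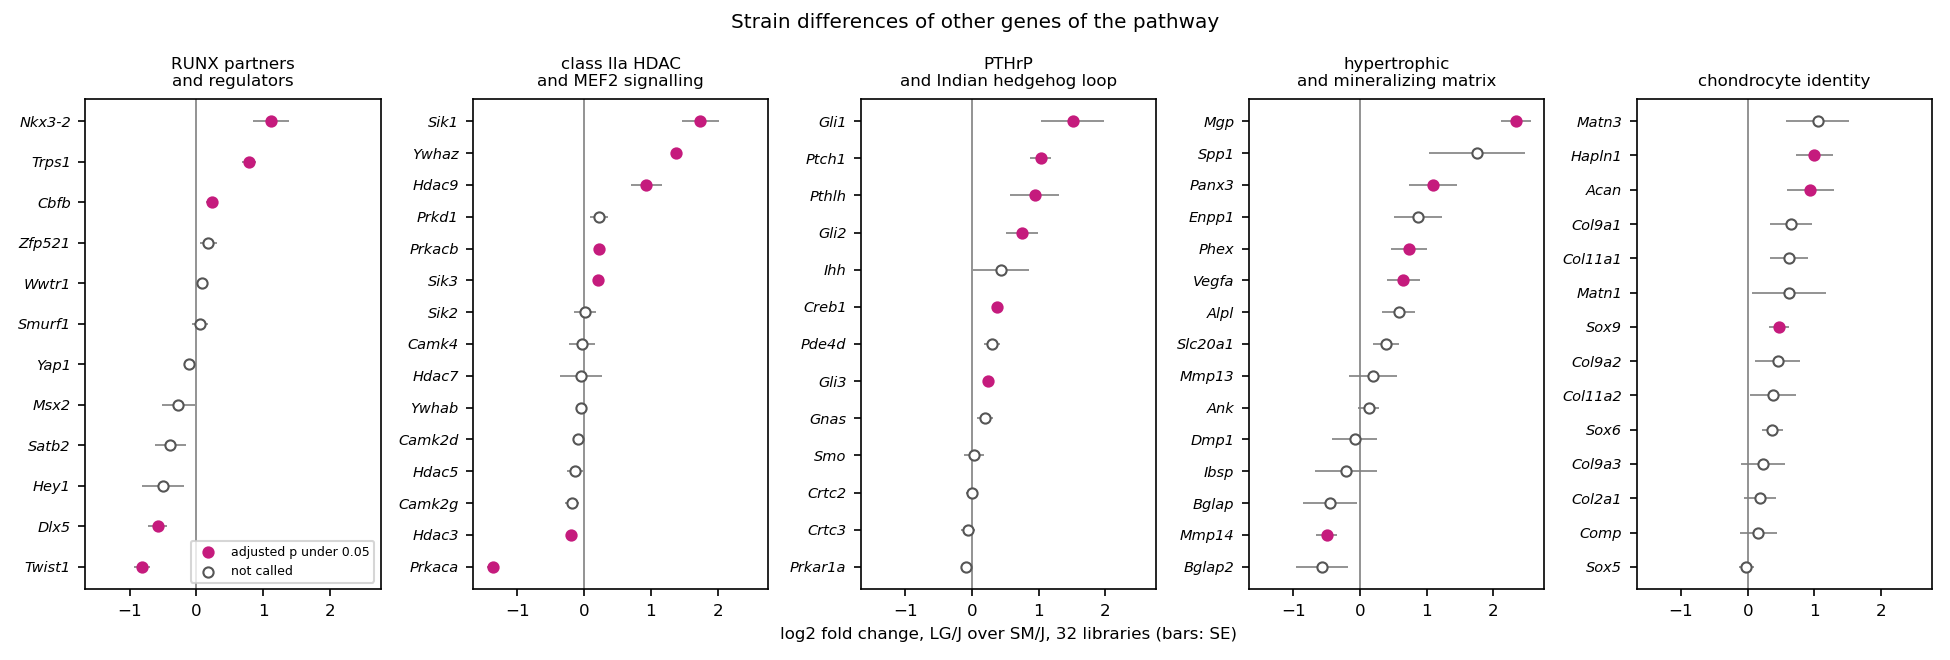
Log2 fold change of LG/J over SM/J, with SE bars, for the tested genes of 5 pathway lists in all 32 libraries, with genes at an adjusted p under 0.05 filled. The called genes run from Prkaca at -1.37 to Mgp at 2.34, and of the hedgehog and parathyroid hormone-related protein loop 6 are called, all to the right of 0.

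Deviations of log2 CPM from the 4 group means were used to ask whether the hypertrophy regulators moved with Col10a1 from library to library. This removes strain and labelled sex. Of the libraries of mixed sex transcripts, SM/J females 3 and 4 deviated in Col10a1 by 1.42 and 1.62, SM/J males 2 and 3 by -1.69 and -1.78, and LG/J females 4 and 5 by -0.47 and -0.66. The relations are not given without these 6 libraries, and the part of mixed sex in them was not tested. The osteoblast and osteocyte marker sum was 2922 and 2675 CPM in LG/J males 2 and 3, where Runx2 deviated by 0.41 and 0.65. It was 557 and 556 CPM in LG/J males 4 and 5, where Runx2 deviated by -0.61 and -0.52. In SM/J females 1 and 2, at 3334 and 3517 CPM, Runx2 deviated by -0.58 and -0.73. The part of bone cells in the relations was not tested. The 6 close pairs entered the permutation tests as separate libraries, so the p-values may be too small. For example, LG/J males 4 and 5 deviated by -0.74 and -0.76 in Col10a1 and by -0.75 and -0.73 in Pth1r. The relations are not given with close pairs summed. The LG/J libraries numbered 1 form a pair apart at the low end of Col10a1, so the 30 other libraries are given first. There, Pth1r went with Col10a1 most closely (Pearson's r = 0.81, adjusted p = 9.00e-05 by a permutation test, two-sided, over 9 relations; Spearman's rho = 0.73, adjusted p = 9.00e-05). Runx2 did too (r = 0.68, adjusted p = 1.35e-04; rho = 0.64, adjusted p = 5.62e-04), as did Sp7 (r = 0.57, adjusted p = 4.50e-04; rho = 0.62, adjusted p = 5.62e-04) and Runx3 (r = 0.47, adjusted p = 0.00486; rho = 0.55, adjusted p = 0.00358). Mef2a went against it (r = -0.64, adjusted p = 5.17e-04; rho = -0.78, adjusted p = 9.00e-05), as did Runx1 (r = -0.53, adjusted p = 0.00391; rho = -0.54, adjusted p = 0.00616). Thus Mef2a, although higher in LG/J on average, was lower in those libraries of a group where Col10a1 was high.

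Leaving out the 2 libraries with the most extreme Col10a1 of the 30, SM/J female 1 and SM/J male 3, gave r = 0.70 for Pth1r, 0.62 for Runx2, 0.57 for Sp7, 0.59 for Runx3, -0.76 for Mef2a and -0.43 for Runx1. Mef2c had r = 0.61 (adjusted p = 0.00562; rho = 0.39, adjusted p = 0.0462) but 0.24 without these 2, so its relation rests on them. Mef2d (r = 0.43, adjusted p = 0.0661) and Hdac4 (r = -0.31, adjusted p = 0.111) did not pass by r, although rho for Hdac4 was -0.40 (adjusted p = 0.0444). The strains on their own gave r = 0.82 in 14 LG/J and 0.84 in 16 SM/J libraries for Pth1r, 0.67 and 0.74 for Runx2, and -0.83 and -0.59 for Mef2a, in each case with an adjusted permutation p under 0.05. Within LG/J, however, r for Runx2 was 0.32 and for Pth1r 0.64 without males 4 and 5, which are 1 of the close pairs. With all 32 libraries, 6 of the 9 relations passed, and r was 0.94 for Pth1r, 0.79 for Mef2c, -0.83 for Runx1, -0.71 for Hdac4, 0.48 for Sp7 and -0.39 for Mef2a, which was 0.07 with library size as the only scaling and -0.52 with that scaling and without the LG/J libraries numbered 1. Runx2 at 0.23 and Runx3 at 0.32 did not pass there, although rho was 0.44 and 0.58.

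**Figure D5:**
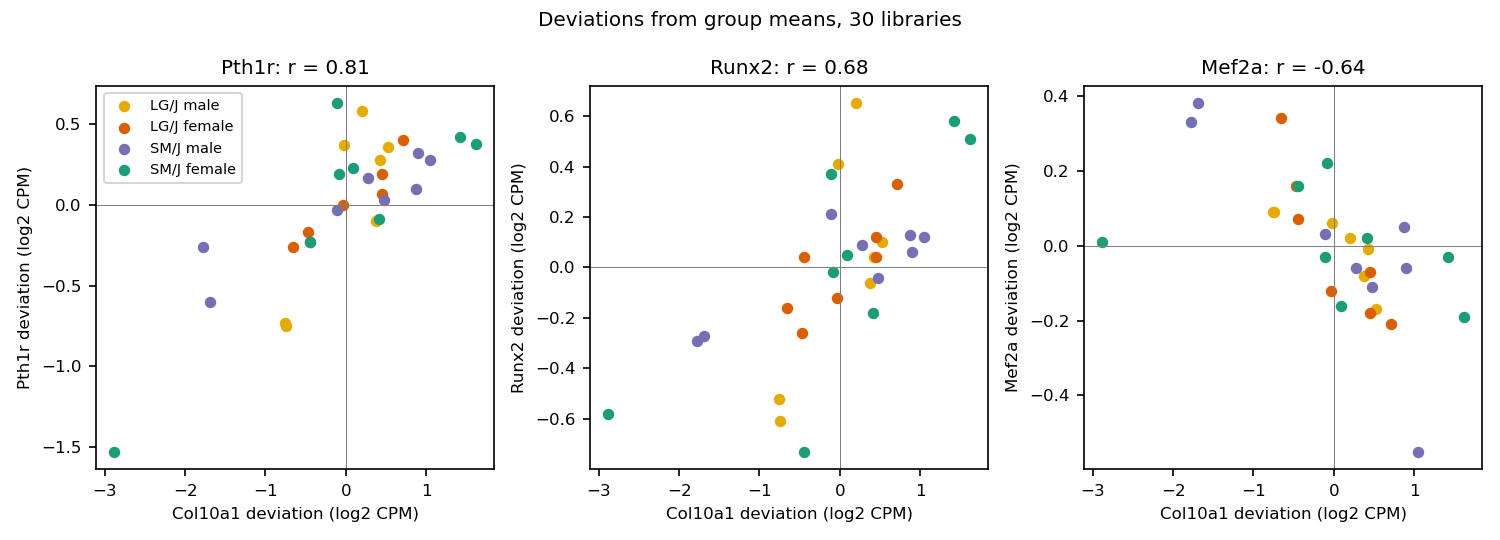
Deviation of Pth1r, Runx2 and Mef2a (log2 CPM) against that of Col10a1 (log2 CPM) from the means of the 4 groups, in 30 libraries without the LG/J libraries numbered 1. The points rise for Pth1r (r = 0.81) and Runx2 (r = 0.68) and fall for Mef2a (r = -0.64), and SM/J female 1 is the point at the far left.

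The genes whose deviations were most like those of 3 of the genes were also listed, over the same 30 libraries and as a description only. For Col10a1 they were Tsta3 (r = 0.85), Prkg2 (0.84), Gper1 (0.83), Pth1r (0.81) and Saal1 (0.81). Prkg2, a cGMP-dependent kinase that promotes hypertrophy in rodents, averaged 155 ± 48.8 CPM in LG/J, against 73.5 ± 27.8 CPM in SM/J. With the LG/J libraries numbered 1 included, r fell to -0.28 for Saal1 and 0.51 for Tsta3. For Runx2 they were Epb41l4a (0.88), Sp7 (0.86), F5 (0.84), Pth1r (0.82) and Slc6a15 (0.82), so 2 of the 5 are among the 10 genes described here. For Mef2c they were Panx3 (0.89), Flvcr2 (0.88), Serinc5 (0.87), Smpd3 (0.86) and Mtus2 (0.83), and r was 0.86 or more for each with all 32 libraries. Smpd3, a sphingomyelinase needed for normal cartilage and bone mineralization in mice, averaged 849 ± 475 CPM in LG/J, against 295 ± 148 CPM in SM/J. The lists of Col10a1 and Runx2 shared Pth1r, and that of Mef2c shared no gene with either.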

How the data were processed

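RNA of 32 libraries was extracted with an RNeasy kit and made into SMARTer libraries, per the labels' protocols. The submitters' processing notes name STAR 2.0.4b, featureCounts 1.45 of Subread and GRCm38. No source used here gives the annotation release or the strand setting. The authors deposited whole-number counts per gene, and CPM and RPKM values per gene without further scaling, which equalled values recomputed from the deposited counts within 1.2e-10 and 9.1e-11. Each library held 15840330 to 25571598 counts over 21214 to 26789 genes, and 40254 of 41388 gene IDs were paired with a symbol.

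The deposited counts were tested with edgeR 4.0.16 in R 4.3.3 (TMM factors, filterByExpr, 16136 genes kept, robust quasi-likelihood test, 4 groups of strain and sex, Benjamini-Hochberg adjustment over all genes, threshold 0.05). Fold changes are LG/J over SM/J, sex differences are male minus female, and SE was taken from the test statistic. CPM and RPKM in the text are TMM-scaled. Relations used log2 CPM with a prior count of 2, deviations from the group means and 100000 permutations within groups, two-sided, for which the smallest possible p is 1.00e-05. Alternatives were other scaling factors and filters, DESeq2 1.42.0, limma 3.58.1 with voom and quality weights, the replicate number as a block, and sets of libraries left out or summed. In simulated data with 16136 genes, the strain test over both sexes recovered 67 of 100 changes of 1.5-fold and 81 of 100 of 2-fold, with 9 false among 157 calls. No other genes were changed, and the simulated libraries were independent. The real data had 4826 calls, close pairs and libraries that stood apart, so these rates need not hold for them. The genes and lists were chosen with earlier results of these data known. From each list, up to 4 called genes with the smallest p were named, plus 9 genes named whatever their result, and the 5 genes most like Col10a1, Runx2 and Mef2c, leaving out predicted genes. Promoter windows came from RefSeq on GRCm38.p6.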

Additional observations from a re-analysis of the deposited data

Results flagged for a closer look

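Within groups of 8, a library stood far from the other 7 in 11 of 40 combinations of gene and group. Chance gives about 1 in 20 for independent, normally distributed values. The 40 combinations come from the same libraries and are not independent, so that rate is no test of the count. The LG/J male numbered 1 was highest for Runx1 at 38.6 CPM (2.65 to 8.41 in the other 7) and for Hdac4 at 88.7 CPM (56.2 to 69.7), and lowest for Col10a1 at 10.7 CPM (205 to 501). The LG/J female numbered 1 was highest for Runx1 at 31.9 CPM (3.90 to 9.23) and for Hdac4 at 103 CPM (49.7 to 70.1). It was lowest for Mef2c at 40.4 CPM (93.9 to 173), Col10a1 at 8.20 CPM (332 to 855) and Pth1r at 22.6 CPM (140.4 to 221). The SM/J female numbered 1 was lowest for Mef2c at 18.0 CPM (36.8 to 65.0), Col10a1 at 20.2 CPM (109 to 458) and Pth1r at 27.8 CPM (68.6 to 124). All 11 combinations thus came from 3 libraries, each numbered 1 in its group.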

How the results depend on the processing

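Runx2, Runx3, Mef2c, Mef2d, Hdac4 and Pth1r were called higher in LG/J in all 14 alternatives and in all 32 fits without 1 library. The count of the 10 genes called ran from 7 to 9 over the fits without 1 library, from 4 to 7 in males and from 3 to 5 in females. In females it was 7 by voom and 8 without both the LG/J libraries numbered 1 and the 6 of mixed sex transcripts, against 4. Over both sexes, genes called in all numbered 6089 by voom and 4155 without both sets, against 4826. Shares of all genes called within a sex are not given for these settings, nor any for the fits without 1 library. Col10a1 was called by DESeq2 (adjusted p = 0.0377), and the range of its adjusted p over all alternatives was 5.71e-05 to 0.139.

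The log2 fold change of Runx1 (0.10) and that of Mmp13 (0.20) turned negative in the same 6 alternatives, and the cause was not tested. They were -0.42 and -0.57 by voom, -0.27 and -0.39 with the replicate block, -0.57 and -0.56 without the LG/J libraries numbered 1, -0.35 and -0.28 also without the 6 of mixed sex transcripts, -0.60 and -0.50 without the LG/J pair and with close pairs summed, and -0.52 and -0.61 without the LG/J pair and SM/J female 1. These last 3 alternatives were chosen after seeing the data. Over the fits without 1 library, Runx1 ran from -0.26 to 0.18 and Mmp13 from -0.23 to 0.28, negative without the LG/J male (-0.26 and -0.23) or female (-0.21 and -0.14) numbered 1. Ibsp (-0.21) was 0.36 by voom, 0.12 with the replicate block, 0.08 without both sets of libraries, and -0.46 to 0.07 over the fits without 1 library, positive without SM/J male 1 (0.07) or SM/J female 2 (0.01).

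Same-numbered libraries of different groups had a median correlation of 0.14 (-0.45 to 0.84), with 30 of 48 pairs above 0.1, against a median of -0.01 and 99 of 336 pairs for differently numbered ones. Same-numbered libraries were thus more alike on the whole, but not every pair was above 0.1. For 12 of 32 libraries, the number with the highest mean correlation over the other groups, out of 8 numbers, was their own. No label ties the numbers to a shared source, so they were not taken as pairs in the main test. With the replicate block, 7 of the 10 genes and 5286 genes in all were called, against 7 and 4826, and 8 relations with Col10a1 passed, against 6. Under the block Col10a1 had 0.85 (adjusted p = 0.139), and the calls of Panx3 (0.78, adjusted p = 0.115) and Acan (0.73) were lost. Genes called in all numbered 3604 with close pairs summed and 6089 by voom. With library size only, 2599 were higher and 1749 lower in LG/J, against 2652 and 2174. Nkx3-2, Sik1, Pthlh and Ihh had few counts, which limits their precision.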
